A study of Mus musculus with 56 samples.

Results

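The 6 genes described here encode chemokines that activated lymphocytes can make: Ccl3, Ccl4, Ccl5, Ccl1, Xcl1 and Cxcl10. They were taken by symbol from the 2 count tables of the series, and a gene with under 10 counts in a table was skipped there. By this rule 5 of the 19791 symbols of experiment 1 were used, since Ccl1 had 8 counts in that table, and all 6 of the 24421 symbols of experiment 2 were used. The cells were CD4 T cells from the spleen of C57BL/6 mice, cultured without added cytokines. In experiment 1, unactivated naive cells (CD44 negative and CD62L positive) and unactivated mature cells (CD44 positive and CD62L negative) were enriched with magnetic beads. Naive cells started at 250000 cells/ml were also activated through CD3 and CD28, with antibody-coated beads, and were sorted as CD62L positive or CD62L negative at 48 h and 72 h. In experiment 2, unactivated naive cells of the same CD44 and CD62L markers were sorted, not bead-enriched. Naive cells were activated with the same kind of beads at a high concentration of 1000000 cells/ml or a low concentration of 62500 cells/ml, and all CD4 positive cells were sorted at 18, 30, 48 and 72 h. Further cultures of experiment 2 started at 250000 cells/ml and were sorted at 48 and 72 h into CD62L positive and CD62L negative cells, all CD44 positive. Each of the 19 groups had 3 libraries, except the low concentration at 72 h with 2.

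Chemokines are small secreted proteins that steer leukocytes through G protein-coupled receptors. CCL3 and CCL4, once called macrophage inflammatory proteins 1α and 1β, are made by T cells that have met their antigen and draw other leukocytes to them, and CCL3 acts on CCR1. CCL5, also known as RANTES, binds CCR1 and CCR3 and is made by antigen-experienced and effector T cells. XCL1, or lymphotactin, binds XCR1 on cross-presenting dendritic cells, CCL1 binds CCR8, and CXCL10 is an interferon-induced ligand of CXCR3. CD62L, or L-selectin, is the lymph node homing receptor that activated T cells can shed or keep.

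The 56 libraries were 3′ end RNA libraries, with 58750 to 1738555 counts in experiment 1 and 587118 to 3359875 in experiment 2. Levels are given as CPM, the counts of a gene per 1000000 counts of its library, scaled by edgeR's trimmed mean of M-values, each experiment on its own, so levels were not tested across experiments. Naive replicate 1 of experiment 1 stood apart, with the 58750 counts and a mean correlation of 0.781 with its group, against 0.848 and 0.857 for the other naive libraries of its group and 0.918 to 0.983 for the libraries of the activated groups. The list of CD4 T cell markers (Cd4 and the general T cell genes Cd3e, Cd3d, Cd3g, Cd5 and Thy1) summed to 1940 to 6370 CPM in every library. This sum does not tell CD4 from CD8 T cells. In experiment 2 the natural killer cell markers Ncr1, Klrb1c and Klra8 were at 0 counts in all 13 groups. The full list of 11 CD8 T cell and natural killer markers had 3 to 7 genes with counts in each of these groups. It summed to 13.1 to 104 CPM over their libraries. Nothing says that replicates came from separate mice or cultures, so a p-value here reflects no more than how far these libraries lie apart, and intervals on counts cover counting error only. In sorted bulk samples, fewer cells that make a chemokine and less RNA per cell cannot be told apart.

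RefSeq held a promoter entry for 4 of the 6 genes, and these are shown because the genes moved with activation, culture concentration or CD62L in the results below. Each sequence runs 5′ to 3′ on the gene's strand, from 250 bases before to 50 bases after the start, on build GRCm38.p6. Capitals mark matches, on either strand, to 4 motifs of factors known to act on activation or interferon: NF-kB, AP-1 (TGANTCA), the NFAT core (GGAAA, or TTTCC when read on the other strand) and the interferon-stimulated response element. The Ccl3 promoter lies at chr11:83649329-83649628, Ccl1 at chr11:82179763-82180062, Xcl1 at chr1:164935473-164935772 and Cxcl10 at chr5:92348840-92349139, all on the minus strand.
Ccl3: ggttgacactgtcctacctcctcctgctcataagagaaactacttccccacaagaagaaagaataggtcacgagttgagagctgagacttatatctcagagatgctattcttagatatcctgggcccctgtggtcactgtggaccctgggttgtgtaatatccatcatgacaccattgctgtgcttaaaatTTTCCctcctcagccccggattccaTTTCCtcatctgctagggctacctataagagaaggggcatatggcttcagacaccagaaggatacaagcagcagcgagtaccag
Ccl1: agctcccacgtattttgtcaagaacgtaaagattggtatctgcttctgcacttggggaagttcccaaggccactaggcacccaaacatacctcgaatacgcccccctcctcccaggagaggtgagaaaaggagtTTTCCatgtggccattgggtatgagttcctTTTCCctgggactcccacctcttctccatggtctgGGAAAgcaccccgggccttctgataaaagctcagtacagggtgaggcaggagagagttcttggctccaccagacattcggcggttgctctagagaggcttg
Xcl1: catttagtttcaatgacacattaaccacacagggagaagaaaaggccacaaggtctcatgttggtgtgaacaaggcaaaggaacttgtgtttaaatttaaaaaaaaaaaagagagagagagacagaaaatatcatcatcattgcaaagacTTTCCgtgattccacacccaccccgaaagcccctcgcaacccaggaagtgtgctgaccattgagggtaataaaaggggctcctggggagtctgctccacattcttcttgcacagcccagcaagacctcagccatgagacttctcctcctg
Cxcl10: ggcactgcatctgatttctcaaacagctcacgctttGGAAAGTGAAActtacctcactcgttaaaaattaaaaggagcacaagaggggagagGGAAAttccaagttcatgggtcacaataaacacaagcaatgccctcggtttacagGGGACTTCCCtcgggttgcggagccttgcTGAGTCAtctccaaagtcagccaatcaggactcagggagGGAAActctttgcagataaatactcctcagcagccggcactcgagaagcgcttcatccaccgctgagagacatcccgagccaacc
Of these letter patterns, the Ccl3, Ccl1 and Xcl1 windows matched only the NFAT core, 2, 3 and 1 times. That core was in 61.5% of the 32544 promoter windows of the same length. The Cxcl10 window matched all 4 motifs. Its match to the NF-kB letters used, GGGACTTCCC, began 103 bases and its AP-1 match 74 bases before the start. These letter patterns were in 1.17% and 7.79% of all windows. Its response element, found in 3.45% of all windows, overlapped 1 of its 3 NFAT cores, so both are within the first run of capitals. A match describes letters and is not a measured binding site. Ccl4 and Ccl5 had no entry.

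Ccl4 and Ccl3, which were not detected in sorted naive cells, rose on activation. Ccl4 had 0 counts in the 3 naive libraries of experiment 2. At 18 h it stood at 219, 258 and 237 CPM at high concentration and at 140, 173 and 160 CPM at low concentration. Over the 18 h groups this was at least 323-fold higher than in naive cells, against a floor of 3 counts over the naive group, and the adjusted p was 1.26e-25 (edgeR's quasi-likelihood test with Benjamini-Hochberg adjustment over all genes tested, as for every adjusted p below unless another fit is named). Each fold given as at least rests on such a floor. The lower end of its counting interval was smaller, at 263 for Ccl4 here. Ccl3 was likewise at 0 counts in naive cells. At 18 h it was at least 24.7-fold higher (lower interval end 19.7), with an adjusted p of 1.04e-07. Xcl1 had 1 count over the naive libraries and 103 at 18 h, a ratio of 78.8 (interval from counting error 13.8 to 3140). Ccl5 rose by 1.97 ± 0.676 on the log2 scale (SE; adjusted p = 0.00946), with libraries that overlapped the naive ones. All 4 members tested in experiment 2 thus rose, in a comparison where 65.9% of the 9239 genes tested were called and 32.3% were called higher. The call on Ccl5 was lost without high concentration replicate 2 at 18 h (1.55, adjusted p = 0.0888) or without naive replicate 3 (1.61, adjusted p = 0.062).

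**Figure D1:**
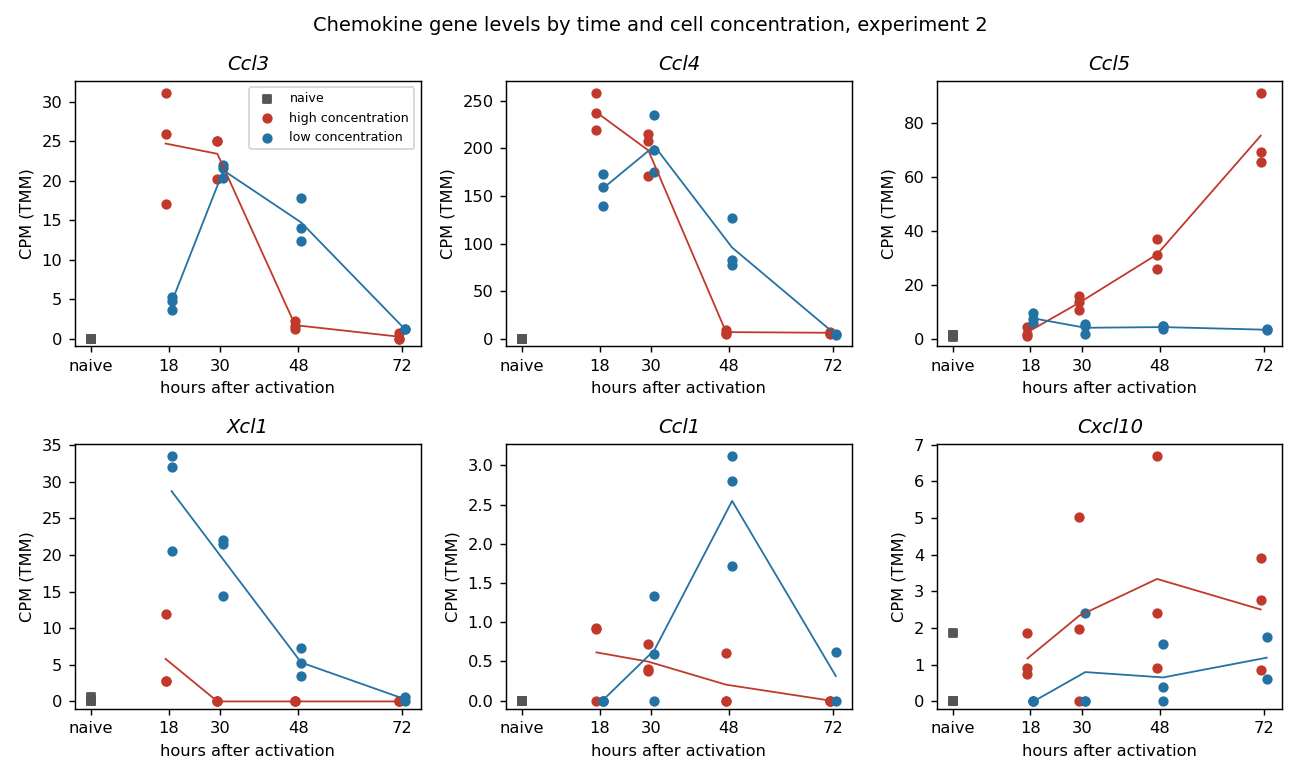
Levels of the 6 chemokine genes in experiment 2, in CPM on the vertical axes, against hours after activation, with naive cells at the left. Each point is a library, red for high and blue for low concentration, and lines join group means: Ccl3 and Ccl4 fell between 30 h and 48 h at high concentration, Xcl1 was at 0 from 30 h there, and Ccl5 climbed to 65.5 to 90.9 CPM.

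Ccl3 and Ccl4 kept their level for longer at low concentration, as the plot of levels by time shows. At 30 h Ccl4 stood at 208, 171 and 215 CPM at high and at 175, 198 and 235 CPM at low concentration. At 48 h it stood at 5.86, 5.45 and 9.53 CPM at high and at 127, 83.2 and 77.3 CPM at low concentration. The ranges overlapped at 30 h, and at 48 h every low concentration library lay above every high concentration one. From 30 h to 48 h Ccl4 fell by 4.76 ± 0.254 on the log2 scale at high concentration (adjusted p = 1.01e-20) and fell by 1.08 ± 0.185 at low concentration (adjusted p = 4.84e-05). From 48 h to 72 h it fell by 4.47 ± 0.334 at low concentration (adjusted p = 9.89e-15), down to 3.74 and 4.70 CPM. At high concentration it was at 6.24, 5.15 and 7.37 CPM at 72 h, a difference from 48 h of -0.213 ± 0.398 that did not pass.

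Ccl3 followed a like course except at the start. At 18 h it stood at 26.0, 17.1 and 31.1 CPM at high and at 3.64, 4.84 and 5.34 CPM at low concentration, with no overlap. At 30 h both concentrations lay between 20.2 and 25.1 CPM and overlapped. At 48 h Ccl3 stood at 1.67, 1.21 and 2.27 CPM at high and at 14.0, 17.8 and 12.4 CPM at low concentration, again apart but in the other order. Between 18 h and 30 h Ccl3 rose at low concentration by 2.26 ± 0.511 (adjusted p = 0.00139), while its difference at high concentration was -0.0696 ± 0.364. The rise at low concentration did not pass once the second number in the sample titles, whose meaning the labels do not give, was a term of the fit (1.6, adjusted p = 0.112). Ccl3 then fell by 3.66 ± 0.513 from 30 h to 48 h at high concentration (adjusted p = 1.49e-07) and fell by 3.51 ± 0.675 from 48 h to 72 h at low concentration (adjusted p = 7.6e-05).

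The direct comparison of high with low concentration gave each gene its own order in time. At 18 h, 2 of 4 members were called against 1.87% of all genes tested: Ccl3 was higher at high concentration by 2.46 ± 0.519 (adjusted p = 0.00278), and Xcl1 was lower. The Ccl4 difference of 0.604 ± 0.19 did not pass (adjusted p = 0.0928), although every high concentration library lay above every low one. It passed when the 18 h groups were fitted alone (0.612, adjusted p = 0.000753) and with the second title number as a term (0.604, adjusted p = 0.0405). The Ccl3 call was lost without low concentration replicate 1 (2.26, adjusted p = 0.064). At 30 h, 2 of 4 were called against 8.56% of genes, Ccl5 higher and Xcl1 lower at high concentration, and neither Ccl3 (0.128 ± 0.351) nor Ccl4 (-0.0406 ± 0.179) passed. At 48 h all 4 were called, against 25.9% of genes: Ccl4 was lower at high concentration by -3.71 ± 0.259 (adjusted p = 5e-16), Ccl3 by -2.99 ± 0.537 (adjusted p = 2.32e-05), Xcl1 was lower and Ccl5 higher. At 72 h 1 of 4 was called, against 26.5% of genes, and that was Ccl5. The Ccl4 difference at 72 h was 0.549 ± 0.49, and Ccl3 had 1 count at high and 4 counts at low concentration, a high to low ratio of 0.234 (interval 0.00475 to 2.36).

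A test of whether the difference between concentrations changed over the 4 times was called for all 4 members, where 30.5% of genes were. The adjusted p was 1.9e-06 for Ccl3, 6.46e-14 for Ccl4, 9.14e-07 for Ccl5 and 0.00196 for Xcl1. Technical and cell-type values moved with some of these contrasts. At 48 h all high concentration libraries carry the number 2 at the end of their titles, and of the low concentration libraries only replicate 1 does, which was the highest for Ccl4 at 127 CPM. Over the libraries numbered 2 alone, with 1 low concentration library assumed to vary like the other groups, Ccl4 was lower by -4.18 (adjusted p = 2.67e-15), Ccl3 by -2.99 (adjusted p = 0.00221), and Ccl5 was higher by 2.67 (adjusted p = 0.00182). At 72 h the high libraries all carry 1 and the low libraries all carry 2, so there the number and the concentration cannot be told apart. From 18 h to 30 h the number changes from 1 to 2 in all libraries of both concentrations. From 48 h to 72 h at high concentration it changes from 2 to 1 in all libraries. Over the libraries of these steps alone, the number and the time cannot be told apart. The summed level of the 11 CD8 T cell and natural killer markers was 68.8 to 104 CPM at high and 49.6 to 63.4 CPM at low concentration at 18 h, 40.9 to 64.5 against 30.5 to 37.5 CPM at 30 h, and 35.2 to 40.5 against 14.7 to 16.2 CPM at 72 h. Myeloid markers lay the other way, at 145 to 154 CPM at high and 177 to 204 CPM at low concentration at 18 h, and at 90.6 to 135 against 147 to 165 CPM at 30 h. At 48 h both lists overlapped. Of the CD8 and natural killer list, 7 of 11 were at 0 counts in each 18 h group, Cd8a and Ncr1 in both. The part of these markers in the results was not tested.

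**Figure D2:**
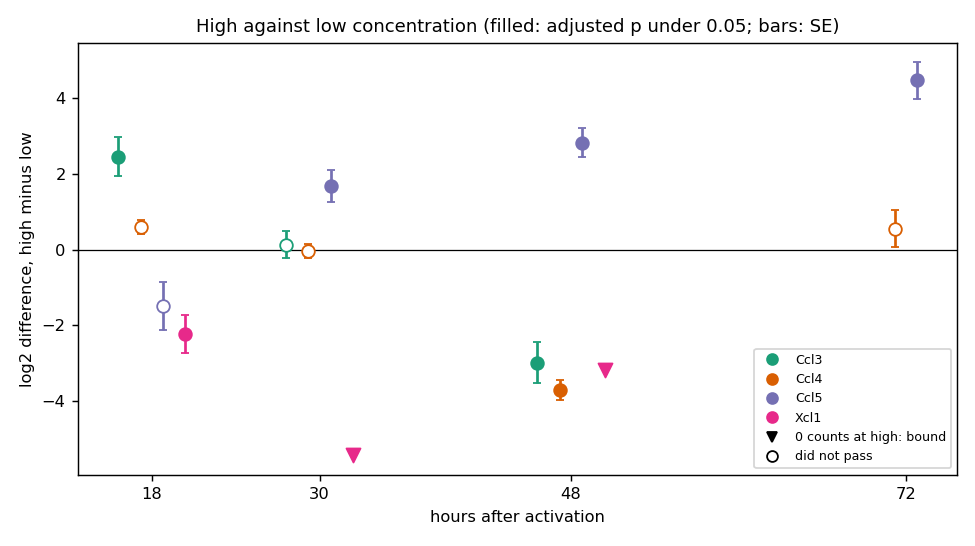
Log2 difference of high minus low concentration for Ccl3, Ccl4, Ccl5 and Xcl1 at 18, 30, 48 and 72 h in experiment 2, with bars of 1 SE. Filled circles passed at an adjusted p of 0.05, open circles did not, and values with 1 to 3 counts in a group are left out. Triangles give the bound, against a floor of 3 counts, where the high concentration had 0 counts. Ccl3 changes sign between 18 h (2.46) and 48 h (-2.99), and Ccl5 reaches 4.47 at 72 h. At 72 h the second title number and the concentration cannot be told apart.

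Ccl5, the chemokine of effector T cells, rose step by step at high concentration and was not called in any step at low concentration. At high concentration it stood at 1.86, 4.47 and 0.913 CPM at 18 h, at 13.6, 10.7 and 15.7 CPM at 30 h, at 25.9, 36.9 and 30.9 CPM at 48 h and at 65.5, 90.9 and 69.1 CPM at 72 h. No library of one time overlapped the next. The steps were 2.36 ± 0.519 (adjusted p = 0.000762), 1.23 ± 0.334 (adjusted p = 0.00335) and 1.26 ± 0.307 (adjusted p = 0.00178). At low concentration Ccl5 stood at 5.83, 9.68 and 7.12 CPM at 18 h, 1.80, 5.51 and 4.86 CPM at 30 h, 4.68, 3.44 and 4.81 CPM at 48 h and 3.12 and 3.53 CPM at 72 h. The 3 steps there were -0.812 ± 0.531, 0.0722 ± 0.494 and -0.382 ± 0.601. The last step at high concentration did not pass with the second title number as a term (0.996, adjusted p = 0.151). That number changed together with the time in this step, and from 18 h to 30 h at both concentrations.

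Between concentrations, the Ccl5 difference of -1.5 ± 0.634 at 18 h did not pass (adjusted p = 0.315), though the libraries did not overlap. It was higher at high concentration by 1.67 ± 0.421 at 30 h (adjusted p = 0.00717), by 2.83 ± 0.389 at 48 h (adjusted p = 1.07e-07) and by 4.47 ± 0.48 at 72 h (adjusted p = 3.65e-10). The ratio of CPM at 72 h was 22.5, with a counting interval of 12.4 to 45.7. The low concentration had 2 libraries there. Their second title number differs from that of all high libraries, so number and concentration cannot be told apart at 72 h. Without low concentration replicate 1, the difference at 30 h was 1.37 with an adjusted p of 0.0542.

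Xcl1, whose product attracts XCR1-bearing dendritic cells, was the first of the tested members to reach 0 counts at high concentration. At 18 h it stood at 2.79, 11.9 and 2.74 CPM at high and at 33.5, 20.6 and 32.0 CPM at low concentration. The groups did not overlap, and high concentration was lower by -2.23 ± 0.502 (adjusted p = 0.00731). At 30 h Xcl1 had 0 counts at high concentration, while low concentration stood at 14.4, 21.5 and 22.1 CPM with 113 counts in all. High concentration was at least 43.2-fold lower against the floor (lower interval end 34.6), with an adjusted p of 2.78e-08. At 48 h it was again at 0 counts at high concentration and at 7.28, 3.44 and 5.21 CPM at low concentration. High concentration was at least 9.01-fold lower (lower interval end 6.93, adjusted p = 0.000104). At 72 h 1 count was left over the 5 libraries.

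Over time Xcl1 at high concentration was at least 13.8-fold lower at 30 h than at 18 h (lower interval end 10.3, adjusted p = 5.33e-05). The second title number changed together with the time in that step. At low concentration the difference from 18 h to 30 h was -0.567 ± 0.423, and from 30 h to 48 h Xcl1 fell by 1.85 ± 0.461 (adjusted p = 0.00667). From 48 h to 72 h its ratio was 17.7, interval 2.96 to 720, and it fell with an adjusted p of 0.00483. The call at 18 h between concentrations rested on few libraries: without high concentration replicate 1 it was -1.92 (adjusted p = 0.0775), without high concentration replicate 3 -1.90 (adjusted p = 0.0847) and without low concentration replicate 1 -2.07 (adjusted p = 0.073). The fall from 30 h to 48 h was lost without low concentration replicate 2 at 48 h (-1.62, adjusted p = 0.0532) and with the second title number as a term (-1.25, adjusted p = 0.29). The fall to 72 h was lost without low concentration replicate 2 at 72 h (-2.96, adjusted p = 0.0969).

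Read by steps in time, the members called at high concentration numbered 2 of 4 from 18 h to 30 h, 3 of 4 from 30 h to 48 h and 1 of 4 from 48 h to 72 h. The shares of all genes called in these steps were 17.9%, 30.1% and 23.5%. At low concentration 1, 2 and 3 of the 4 members were called, against 11.7%, 9.28% and 25.8% of all genes.

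Ccl1 and Cxcl10 were near the limit of detection in experiment 2, with 51 and 70 counts over the 38 libraries, and neither passed the low-count filter. Ccl1, the ligand of CCR8, stood at 3.12, 1.72 and 2.80 CPM at low and at 0, 0.606 and 0 CPM at high concentration at 48 h. The groups did not overlap, and the count ratio of low to high was 13.1 with an interval of 2.04 to 550. With no low-count filter this difference had an adjusted p of 0.0625. Outside the 48 h groups Ccl1 reached at most 1.33 CPM in any library of experiment 2. Cxcl10, the CXCR3 ligand, was highest at high concentration at 48 h, at 6.69, 2.42 and 0.907 CPM, with 14 counts against 4 at low concentration. The ratio of 4.27 had an interval of 1.34 to 17.8, the libraries overlapped, and without the filter the adjusted p was 0.158. At 18 h Cxcl10 had 4 counts at high and 0 counts at low concentration, which is too few for a comparison at this depth.

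In cultures sorted by CD62L at 48 h, Ccl3 and Ccl4 were high in the CD62L negative cells and low in the CD62L positive cells of both experiments. In experiment 2 Ccl4 stood at 71.6, 99.5 and 86.0 CPM in CD62L negative and at 1.72, 0.709 and 2.57 CPM in CD62L positive cells. In experiment 1 it stood at 55.0, 61.3 and 58.7 CPM in negative and at 3.33, 3.74 and 2.22 CPM in positive cells. No libraries overlapped, and CD62L positive cells were lower by -5.6 ± 0.336 (adjusted p = 5.41e-18) and by -4.19 ± 0.35 (adjusted p = 1.15e-10). Ccl3 stood at 15.0, 31.2 and 14.6 CPM in negative and 0, 2.84 and 0.642 CPM in positive cells of experiment 2. In experiment 1 it stood at 11.7, 17.4 and 13.7 CPM in negative and at 1.11, 1.25 and 0 CPM in positive cells. It was lower in positive cells by -4.19 ± 0.571 in experiment 2 (adjusted p = 2.94e-07). In experiment 1 positive cells had 2 counts and negative cells 55, a ratio of 18.7 with an interval of 4.93 to 158 and an adjusted p of 0.000103.

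Ccl1 followed the same order in experiment 2, where the negative cells at 48 h held 1.66, 3.15 and 3.52 CPM and the positive cells 0 counts. Positive cells were at least 4.53-fold lower (lower interval end 3.37), with an adjusted p of 0.0143 in the fit without the low-count filter. Ccl5 at 48 h passed in experiment 2 and not in experiment 1, and the difference between the experiments was not tested. In experiment 2 it stood at 10.5, 11.5 and 12.1 CPM in negative and at 0, 4.96 and 3.85 CPM in positive cells, lower by -2 ± 0.479 (adjusted p = 0.00254). In experiment 1 the CD62L negative cells lay between 13.6 and 17.5 CPM and the positive cells between 15.5 and 23.3 CPM, and the difference of 0.29 ± 0.622 did not pass. The call in experiment 2 was lost without CD62L positive replicate 1 (-1.35, adjusted p = 0.0556) and over libraries with the title number 1 alone (-1.89, adjusted p = 0.0752). Xcl1 had at most 3 counts over any sorted group of either experiment, although low concentration cells at 48 h held 33.

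These counts stood at 3 of 4 members called in experiment 2, against 14.5% of genes, and 2 of 5 in experiment 1, against 6.51%. At 48 h all CD62L positive libraries of experiment 2 carry the title number 1, and CD62L negative replicate 1 does too. That replicate held 71.6 CPM of Ccl4 and 15.0 CPM of Ccl3, above all positive libraries. Over the libraries numbered 1 alone, with 1 negative library assumed to vary like the other groups, Ccl4 was lower in positive cells by -5.33 (adjusted p = 4.67e-14) and Ccl3 by -3.71 (adjusted p = 0.000408). The B cell markers summed to 4.87 to 9.06 CPM in negative and 12.8 to 14.9 CPM in positive cells, and the CD8 T cell and natural killer markers to 16.1 to 26.2 and 26.3 to 37.6 CPM, so both lists lay lower where Ccl3 and Ccl4 were higher. Their part in the result was not tested.

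**Figure D3:**
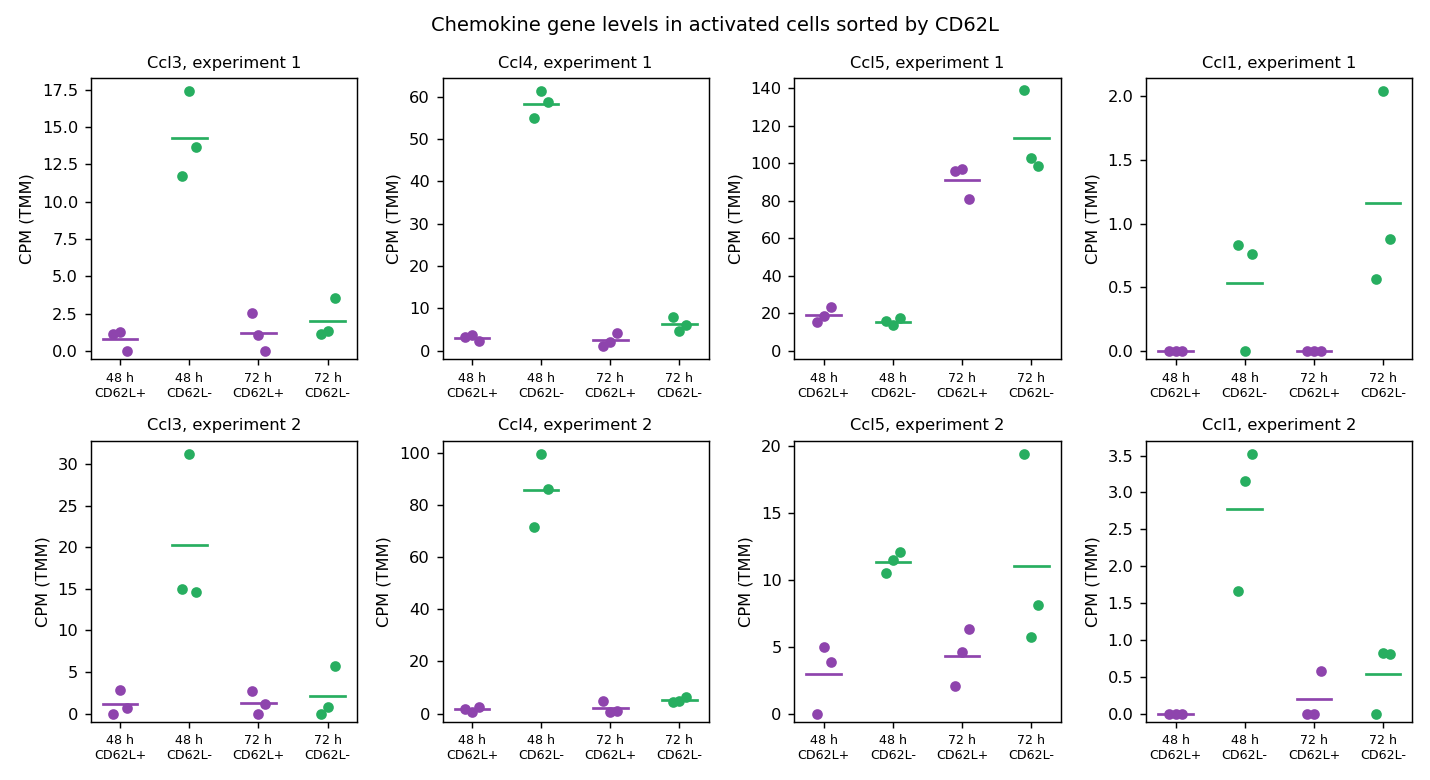
Levels in CPM of Ccl3, Ccl4, Ccl5 and Ccl1 in activated cells sorted as CD62L positive (purple) or negative (green) at 48 h and 72 h, experiment 1 above and experiment 2 below. Points are libraries and bars group means: Ccl3 and Ccl4 are high only in CD62L negative cells at 48 h, in both experiments, and Ccl5 is above 80 CPM at 72 h in experiment 1. Ccl1 of experiment 1, with 8 counts in all, is drawn but not used.

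By 72 h none of the members passed between CD62L positive and negative cells, in experiment 2 against 1.53% of genes and in experiment 1 against 19.5%. Ccl4 differed by -1.22 ± 0.531 in experiment 2 (adjusted p = 0.297) and by -1.43 ± 0.567 in experiment 1 (adjusted p = 0.0732). The narrowing of the Ccl4 difference from 48 h to 72 h was itself called in experiment 2, at 4.38 ± 0.777 (adjusted p = 0.000417), as the 1 of 4 members against 1.3% of genes. It was not called in experiment 1, at 2.75 ± 0.886 (adjusted p = 0.109), where 1.89% of genes were. Without CD62L positive replicate 1 at 72 h, the change in experiment 2 was 3.27 with an adjusted p of 0.238, and without CD62L negative replicate 3 at 72 h Ccl3 passed too (5.67, adjusted p = 0.0196). Cxcl10 in experiment 1 stood at 13.9, 26.4 and 25.6 CPM in CD62L positive and at 9.65, 7.48 and 1.76 CPM in CD62L negative cells at 72 h, with no overlap. Its difference of 1.66 ± 0.62 did not pass (adjusted p = 0.0709), but passed when the 72 h groups were fitted alone (adjusted p = 0.0228), with DESeq2 (adjusted p = 0.022) and without the low-count filter (adjusted p = 0.000633). For Ccl3 with all libraries the change of the difference was 3.48 ± 1.18 in experiment 2 (adjusted p = 0.166) and 3.58 ± 1.44 in experiment 1 (adjusted p = 0.219).

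Averaged over the CD62L sorts, Ccl4 fell from 48 h to 72 h by 1.79 ± 0.403 in experiment 1 (adjusted p = 0.000318) and fell by 1.82 ± 0.404 in experiment 2 (adjusted p = 0.000288). This mean joins CD62L negative cells, where Ccl4 went from 58.3 to 6.29 CPM in experiment 1 and from 85.7 to 5.26 CPM in experiment 2, with CD62L positive cells, where it stood at 3.1 and 2.55 CPM and at 1.67 and 2.23 CPM. Ccl5 rose in experiment 1 by 2.56 ± 0.337 (adjusted p = 1.76e-05), from 13.6 to 23.3 CPM at 48 h to 81 to 139 CPM at 72 h, with no overlap. In experiment 2 its difference was 0.292 ± 0.352, with 0 to 12.1 CPM at 48 h and 2.05 to 19.4 CPM at 72 h. The cultures of both experiments started at 250000 cells/ml, and whether Ccl5 differed between experiments was not tested. These were 2 of 5 members called in experiment 1, against 52.5% of genes, and 1 of 4 in experiment 2, against 37.8%. Ccl3 in experiment 2 missed the threshold at -1.45 ± 0.606 (adjusted p = 0.0538) and passed in 8 of its alternatives.

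Unactivated cells of the 2 experiments differed in these genes by orders of magnitude. In experiment 1 Ccl5 stood at 582, 2530 and 2350 CPM in naive and at 3040, 3750 and 3340 CPM in mature cells, whereas in naive cells of experiment 2 it stood at 1.54, 1.24 and 0.53 CPM. Ccl4 stood at 15.3, 29.3 and 46.2 CPM in naive and at 24.8, 36.4 and 35.6 CPM in mature cells of experiment 1. Ccl3 stood at 61.3, 37.7 and 30.8 CPM in naive and at 19.1, 26.3 and 46.9 CPM in mature cells. Cxcl10 stood at 61.3, 234 and 43.1 CPM in naive and at 45.7, 58.6 and 80.8 CPM in mature cells, and Xcl1 at 15.3, 16.7 and 12.3 and at 36.2, 16.2 and 22.6 CPM. Only Ccl5 had no overlap between naive and mature cells, and the share of all genes without overlap there was not counted.

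None of the 5 members passed between mature and naive cells, where 16.4% of the 8961 genes tested were called, and Ccl5 came nearest at 0.792 ± 0.298 (adjusted p = 0.0895). Without naive replicate 1, the shallow library at 582 CPM, the Ccl5 difference was 0.496 and passed (adjusted p = 0.0107), as it did with DESeq2 (0.863, adjusted p = 0.0388). Cxcl10, at -0.948 ± 0.481 with all libraries, passed without naive replicate 3 (-1.55, adjusted p = 0.00962) and without the low-count filter (-0.914, adjusted p = 0.025). Its difference without naive replicate 2, the library at 234 CPM, was 0.422.

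Against these naive cells, all 5 members were lower in the mean of the 4 activated groups of experiment 1, where 56.1% of genes were called and 29% were called lower. Ccl5 was lower by -5.53 ± 0.244 (adjusted p = 1.13e-10), Ccl3 by -3.9 ± 0.51 (adjusted p = 5.14e-08), Cxcl10 by -3.5 ± 0.463 (adjusted p = 4.22e-06) and Ccl4 by -2.3 ± 0.384 (adjusted p = 4.49e-06). Xcl1 had 9 counts in naive and 1 count in activated cells, a ratio of 186 with an interval of 25.8 to 8160 (adjusted p = 1.95e-06). The mean hides a split for Ccl4, which stood at 58.3 ± 3.16 CPM (SD, n = 3) in CD62L negative cells at 48 h, above the 30.3 ± 15.4 CPM of naive cells with no overlap, and at 2.55 to 6.29 CPM in the means of the other activated groups. Its ratio of naive to activated cells from summed counts was 1.8, with an interval of 1.12 to 2.75. Apart from that group, the direction is opposite to that of Ccl3, Ccl4, Ccl5 and Xcl1 at 18 h in experiment 2, and the contrasts differ in time, in sorting and in the naive cells used. The bead-enriched libraries of experiment 1 held markers of other cells at levels the sorted ones did not. CD8 T cell and natural killer markers summed to 306 to 782 CPM in naive and 378 to 389 CPM in mature cells, with 10 and 8 of 11 genes detected, against 25.5 to 69.6 CPM in activated cells and 51.5 to 59.3 CPM in naive cells of experiment 2. Myeloid markers summed to 1880 to 2610 and 1050 to 1220 CPM, against 149 to 364 and 228 to 317 CPM, and B cell markers to 889 to 1620 and 549 to 620 CPM, against 5.30 to 21.3 and 1.24 to 8.46 CPM. Natural killer, CD8 T and myeloid cells are known to make several of the 6 chemokines, and the part of such cells in the levels was not tested.

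**Figure D4:**
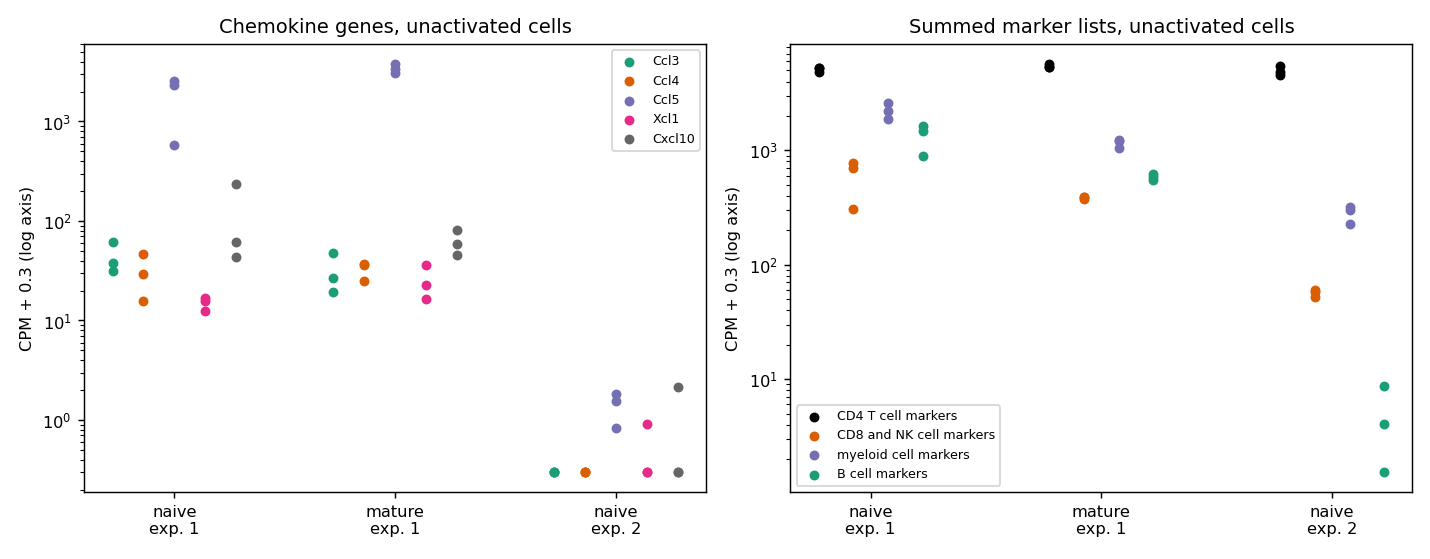
Left, levels of 5 chemokine genes in the unactivated groups, and right, the summed levels of 4 marker lists in the same libraries, both as CPM plus 0.3 on a log axis, 1 point a library. Ccl5 is at 582 to 3750 CPM in the bead-enriched cells of experiment 1 and at 0.53 to 1.54 CPM in the sorted naive cells of experiment 2, and the B cell markers are at 549 to 1620 CPM and 1.24 to 8.46 CPM.

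Ccl3 and Ccl4 are neighbours on chromosome 11, and the balance of their counts varied between groups. Summed over each group, there were 9.92 Ccl4 counts for each Ccl3 count at high concentration at 18 h, with an interval of 7.93 to 12.5. At low concentration at 18 h there were 35.4, with an interval of 20.1 to 69.1. At 30 h the values were 8.47 at high and 9.63 at low concentration, and at 48 h 6.55 at low concentration. CD62L negative cells at 48 h had 3.92 in experiment 2 and 4.07 in experiment 1, and the unactivated cells of experiment 1 had 1.02 when mature and 1.0 when naive. The activated groups with 4 to 8 Ccl3 counts had 1.6 to 3.5. The ratio per library was 7.65 to 15.1 at high and 30.0 to 38.4 at low concentration at 18 h, with no overlap. The log2 difference between them was -1.8, and a two-sided exact permutation test of it gave p = 0.1, the smallest that 3 against 3 libraries can give. This ratio was chosen after its values were seen. The RefSeq bounds of Ccl3 and Ccl4 overlap, as do those of Cxcl10 with Art3 and Ccl5 with Gm32650, and no source used here gives the strand setting of the counting, so counts within the overlaps are uncertain.

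**Figure D5:**
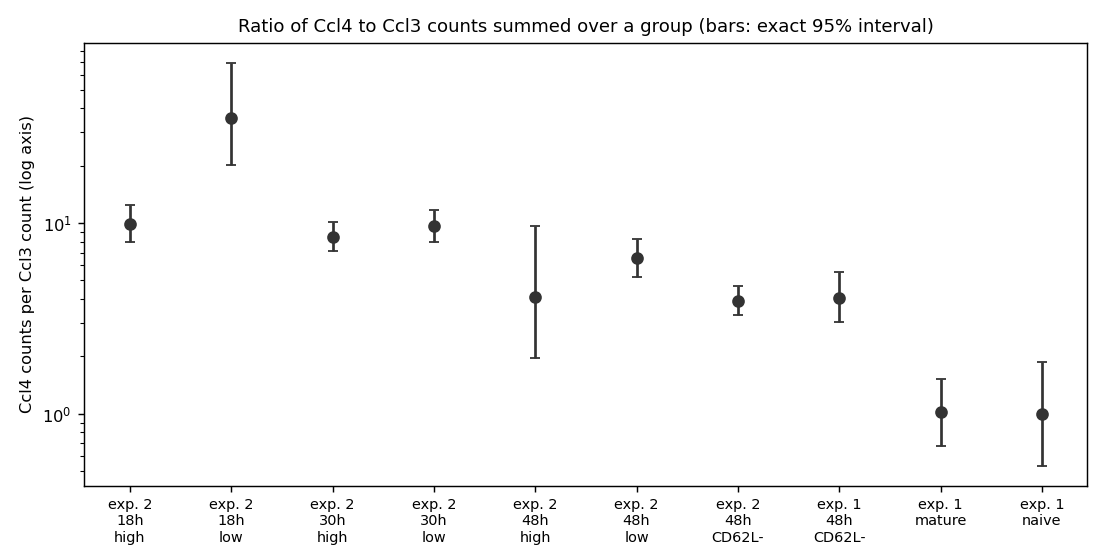
Counts of Ccl4 per count of Ccl3, summed over the libraries of a group, on a log axis, with exact 95% intervals from counting error alone, for the 10 groups with at least 9 Ccl3 counts. The low concentration at 18 h is the highest at 35.4, the other activated groups drawn lie between 3.92 and 9.92, and the unactivated cells of experiment 1 lie at about 1.0.

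Of the 28 other chemokine ligands listed, 5 passed the low-count filter in experiment 1 and 2 in experiment 2. In experiment 1, 4 of those 5 (Ccl6, Ccl9, Cxcl14 and Cxcl16) were lower in activated than in naive cells, where 29% of all genes were called lower. In experiment 2, Ccl27a was higher at high concentration at 48 h by 1.18 ± 0.446 (adjusted p = 0.044), and Ccl25 was not called there (0.152 ± 0.371). Receptors were sparse in these cells. Xcr1 and Ccr1, the receptors of XCL1 and CCL3, had 0 counts in experiment 2. Ccr8, the receptor of CCL1, rose at 18 h by 4.6 ± 0.573 over naive cells (adjusted p = 1.03e-09). Like Xcl1, it was lower at high than at low concentration at 18 h, by -1.48 ± 0.41 (adjusted p = 0.0396), with 12.1 to 21.0 CPM against 43.6 to 49.8 CPM. At 48 h it was lower by -1.68 ± 0.47 (adjusted p = 0.00546), with 1.67 to 7.71 CPM against 14.4 to 16.1 CPM. Ccrl2, an atypical receptor that binds chemerin without signalling, was higher at high concentration at 48 h by 2.74 ± 0.604 (adjusted p = 0.000484). In experiment 1, Cxcr3, the receptor of CXCL10, was higher in CD62L positive than in negative cells at 48 h by 1.38 ± 0.217 (adjusted p = 2.89e-05), where Cxcl10 did not pass (-0.373 ± 0.697).

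Of the 18 transcription factors listed as induced or used by the T cell receptor, 17 could be tested in experiment 2 and 14 in experiment 1. In experiment 2 at 48 h, 14 of 17 tested were lower in CD62L positive cells and 1 was higher, with a median of -1.22 against 0.00965 over all genes, where 7.28% of genes were called lower. Nr4a1, an immediate early nuclear receptor, was lower by -3 ± 0.237 (adjusted p = 4.67e-14), and Egr3 by -3.43 ± 0.376 (adjusted p = 1.12e-09). In experiment 1, 7 of 14 were lower and 1 higher, the latter being Nfatc2 in both experiments, against 2.46% of genes called lower. At 72 h 1 of 17 was lower in CD62L positive cells in experiment 2 and 4 of 14 in experiment 1, and none was higher. The shares of all genes called in either direction there were 1.53% and 19.5%. Between concentrations at 48 h 5 of 17 were lower at high concentration and 1 was higher, with a median of -0.205, against 12% of genes called lower.

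Genes listed with the interferon response, to which Cxcl10 belongs, stood on the side of Ccl5 in the concentration contrast. At 48 h 8 of 10 tested were higher at high concentration, against 13.9% of all genes, and none was lower, with a median of 1.69 against 0.0387 over all genes. Isg15 was higher by 4.27 ± 0.41 (adjusted p = 6.99e-12) and Irf7 by 3.14 ± 0.377 (adjusted p = 3.9e-09). At 72 h 6 of 10 were higher, against 13% of all genes. At 18 h none of 10 was called, and 2 were higher at 30 h. The shares of all genes called in either direction were 1.87% at 18 h and 8.56% at 30 h. Of 8 effector regulators, 4 could be tested in experiment 2. At 72 h Bhlhe40 (2.87 ± 0.276), Runx3 (1.35 ± 0.24) and Gata3 (0.877 ± 0.224) were higher at high concentration, where 13% of all genes were called higher. In every contrast of concentrations at 72 h the second title number and the concentration cannot be told apart. Klf13, a factor known to bind the Ccl5 promoter, was higher at 48 h by 0.72 ± 0.21 (adjusted p = 0.00758) and was not called at 72 h (0.501 ± 0.227).

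Across the 13 group means of experiment 2, the log2 levels of Ccl3 and Ccl4 had a Pearson correlation of 0.931, Ccl4 and Xcl1 of 0.674, Ccl3 and Xcl1 of 0.497, and Ccl5 of -0.108 with Ccl3, 0.0502 with Ccl4 and -0.263 with Xcl1. The group means share libraries and scaling, and these values are descriptions. Among 6817 genes with a mean of at least 20 CPM in 1 group, those most like Ccl4 were Utf1 (0.966), Bysl (0.965) and Naa20 (0.965). Those most like Ccl3 were Cinp (0.95), Dbr1 (0.947) and Gtf2h1 (0.944). Xcl1 was most like Tesk1 (0.909), Fosl1 (0.907) and Zmpste24 (0.905). Ccl5 was most like Mt2 (0.903), Eif4ebp1 (0.896) and Npepps (0.88), and Mt2, a metallothionein, had means of 127 and 80 CPM at high concentration at 48 h and 72 h against 1.38 and 1.51 CPM at low concentration.

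Each member had its own order of levels over the groups of experiment 2. Ccl4 was highest at high concentration at 18 h (238 ± 19.5 CPM, SD, n = 3), followed by low and high concentration at 30 h (203 ± 30.3 and 198 ± 23.4 CPM) and by low concentration at 18 h (158 ± 16.7 CPM), and each of these 4 overlapped its neighbour in the order. Low concentration at 48 h (96.0 ± 27.4 CPM) and CD62L negative cells at 48 h (85.7 ± 14.0 CPM) overlapped, and all other groups had means under 7 CPM. Ccl3 was at 24.7 ± 7.06 and 23.4 ± 2.78 CPM at high concentration at 18 h and 30 h, 21.3 ± 0.877 CPM at low concentration at 30 h and 20.3 ± 9.51 CPM in CD62L negative cells at 48 h, all of which overlapped. Xcl1 was at 28.7 ± 7.08 and 19.3 ± 4.29 CPM at low concentration at 18 h and 30 h, which overlapped, and at 5.81 ± 5.28 CPM at high concentration at 18 h. Ccl5 was at 75.2 ± 13.8, 31.2 ± 5.51 and 13.3 ± 2.49 CPM at high concentration at 72 h, 48 h and 30 h, with no overlap, and its next groups were the CD62L negative cells at 48 h (11.4 ± 0.772 CPM) and 72 h (11.1 ± 7.29 CPM), which overlapped.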

How the data were processed

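RNA of 56 libraries, 18 in experiment 1 and 38 in experiment 2, was made into 3′ poly-T libraries with molecular identifiers, per the labels' protocols. The authors deposited whole-number counts per gene symbol, 1 table for each experiment. The submitters' processing notes name HISAT 0.1.5, bcl2fastq 2.17.1.14, FastQC 0.11.7, STAR 2.5.2b, HTSeq 0.9.1 and the build mm9, without their roles. No source used here says whether identifiers were collapsed or which strand setting was used. Total counts ran from 58750 to 1738555 and from 587118 to 3359875 a library, so 1 count is a different level in each.

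Each table was scaled with TMM and fitted over all its groups with edgeR 4.0.16 (R 4.3.3), the robust quasi-likelihood test and filterByExpr, whose minimum count was 10. This left 8961 and 9239 genes, and Benjamini-Hochberg adjusted p under 0.05 was called. Errors of log2 differences are SE. The fit was tested on simulated counts. Count ratios have exact 95% intervals, and a group at 0 was set at a floor of 3 counts. Ccl1 and Cxcl10 did not pass the filter in experiment 2, nor Ccl1 in experiment 1. Alternatives were DESeq2 1.42.0, RLE scaling, no filter, the compared groups alone, a replicate block, the second title number, and each library left out. Promoters came from RefSeq (GRCm38.p6), matched by symbol. The named genes are the 6 members and those that the fixed lists and the rule of likeness gave. Members and lists were chosen with earlier results of these data known.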

Additional observations from a re-analysis of the deposited data

Results flagged for a closer look

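The difference between CD62L positive and negative cells was not the same at 48 h and 72 h for Ccl4 in experiment 2: the change of the log2 difference was 4.38 (edgeR's quasi-likelihood test, adjusted p = 0.000417). The difference between high and low concentration was not the same over 18, 30, 48 and 72 h for the 4 members tested in experiment 2. The span between the largest and the smallest log2 difference over the 4 times was 5.45 for Ccl3 (adjusted p = 1.9e-06), 4.32 for Ccl4 (adjusted p = 6.46e-14), 5.97 for Ccl5 (adjusted p = 9.14e-07) and 5.75 for Xcl1 (adjusted p = 0.00196). The span of Xcl1 includes fitted values of groups at 0 counts and is no bound.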

How the results depend on the processing

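Of 84 member differences compared, 43 were called, and 33 of these kept their call under every alternative that gave a value. The 33 include the tests of change between concentrations over time, whose value is a span without direction. None of the 43 reversed, which a span could not do. The 10 others lost their call under at least 1 alternative, as given beside them in the report. Same-numbered libraries of different groups deviated together with a median correlation of -0.0334 in experiment 1 (range -0.425 to 0.585). In experiment 2 the median was -0.0175 (range -0.61 to 0.727). The medians of differently numbered pairs were 0.000637 and 0.00187. A median over all pairs of groups cannot show whether the replicate numbers paired some of the libraries. With the replicate block, Ccl3 from 48 h to 72 h in the CD62L sorts of experiment 2 stayed at -1.45 (adjusted p = 0.0598), and no count of members called moved. RLE scaling moved none either. No count of members could be given with the compared groups alone in 5 comparisons, or with DESeq2 between concentrations at 18 h, because a called member had no adjusted p there.

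The number of members called moved by over 1.5 times as follows. With the second title number as a term it was 0 in place of 1 from 18 h to 30 h at low concentration, 1 in place of 2 from 30 h to 48 h there, 0 in place of 1 from 48 h to 72 h at high concentration, and 2 in place of 1 from 48 h to 72 h in the CD62L sorts of experiment 2. DESeq2 and no filter also gave 2 in that last comparison. In experiment 1, the CD62L contrast at 72 h gave 1 in place of 0 with the groups alone, DESeq2 or no filter, its change over time 1 with no filter, and mature against naive 1 with DESeq2 or no filter. With each library left out in turn, the counts ran from 1 to 2 from 30 h to 48 h at low concentration, 1 to 2 in the CD62L sorts over time, 0 to 2 for the change of the CD62L contrast, 0 to 2 between concentrations at 18 h, 1 to 2 at 30 h, and 0 to 1 between mature and naive cells. Moves of 1 member within 1.5 times are not listed, as where a left-out library took 4 to 3 at 18 h against naive cells, or where the second title number took 2 to 3 between concentrations at 18 h and from 18 h to 30 h at high concentration (Ccl4, -0.864, adjusted p = 0.00924).

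Differences that changed sign had not been called. With each library left out in turn, Ccl3 ran from -0.288 to 0.128 (a second library gave 0.0265) from 18 h to 30 h at high concentration, and between CD62L sorts at 72 h from -1.27 to 0.0745 in experiment 1 and from -1.66 to 1.49 in experiment 2. Ccl4 ran from -0.38 to 0.143 from 48 h to 72 h at high concentration and from -0.125 to 0.0983 (also 0.0683) between concentrations at 30 h. Ccl5 ran from -0.22 (also -0.0203) to 0.335 from 30 h to 48 h at low concentration, and from -0.0398 (also -0.0342) to 0.585 in the CD62L sorts of experiment 2 over time. Between mature and naive cells Ccl3 ran from -0.696 to 0.0227, Ccl4 from -0.304 to 0.313 (also 0.0163) and Cxcl10 from -1.55 to 0.422. With the second title number as a term, Ccl4 was -0.219 from 18 h to 30 h at low concentration and 0.379 from 48 h to 72 h at high concentration, and Ccl5 was -0.106 from 30 h to 48 h at low concentration. The cause was not tested.

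Over all genes, the number called between concentrations was 173 at 18 h (94 to 455 over the alternatives), 791 at 30 h (470 to 921), 2397 at 48 h (917 to 2408) and 2447 at 72 h (1421 to 2908). Between CD62L sorts of experiment 2 it was 1341 at 48 h (516 to 1480) and 141 at 72 h (50 to 231), and in experiment 1 583 at 48 h (385 to 701) with 169 for the change over time (79 to 279). From 18 h to 30 h it was 1655 at high (860 to 2070) and 1084 at low concentration (715 to 1199), from 30 h to 48 h 857 at low (485 to 890), from 48 h to 72 h 2170 at high (1277 to 2174) and 2386 at low concentration (1273 to 2555), and 1471 between mature and naive cells (771 to 1684). The lowest values at 48 h, over libraries of 1 title number alone, were chosen after seeing the data and hold fewer libraries. Depth limits Ccl1 and Cxcl10 of experiment 2 and Xcl1 of the sorted cells, which rest on few counts.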
